A study of Mus musculus with 18 samples.

Results

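The meibomian gland was compared with the submandibular gland in mice whose testes had been removed and that carried a pellet without hormone, so that both glands were read without testicular androgen. The comparison used the 3 meibomian and the 3 submandibular placebo arrays, which are 6 of the 18 arrays of the series. All animals were orchiectomised male BALB/c mice, and the pellets, placebo or testosterone, had been in place for 21 days. Each array was a 1-colour array of 1 pool of RNA from 10 glands of 5 animals, while another label field states 4 animals of each sex per experiment. The pools are named A, B and C in each gland. The other 12 arrays, of the lacrimal gland and of all 3 glands with testosterone, entered the estimate of the spread. No label states that equal letters mean the same mice, so pools were not paired. The p-values measure the spread between pools within groups over all 18 arrays. The median SD of the tested probes on the log2 scale was 0.0918 in the placebo meibomian and 0.2008 in the placebo submandibular group.

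The meibomian glands are sebaceous glands in the tarsal plate of the eyelid. Their cells fill with lipid droplets and burst into a duct lined by keratinising epithelium, and the oil spreads over the tear film. The submandibular gland is a salivary gland in which acinar cells secrete protein and fluid and ducts change the salt content of the saliva. In rodents its granular convoluted tubules also secrete kallikreins and growth factors, in amounts that depend on androgen.

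The deposited table held 10500 probes per array, and 7463 passed the filter on missing and dim values. Of these, 6575 named 1 of 6485 genes and 888 were unnamed. The number of arrays limits the precision. Array medians were nearly equal, from 0.929 to 0.933 in the meibomian gland and from 0.942 to 0.948 in the submandibular gland. Both ends of the distribution differed. The maximum lay between 134.6 and 142.9 on the meibomian arrays and between 647 and 743 on the submandibular arrays, and 34 to 42 meibomian probes, against 1 submandibular probe, lay within 10% of their array's maximum. At the dim end, the 10th percentile was 0.0514 to 0.0559 on the meibomian arrays and 0.22 to 0.243 on the submandibular arrays. For this reason each difference was read both on the log2 scale and as a difference of percentile ranks within arrays.

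**Figure D1:**
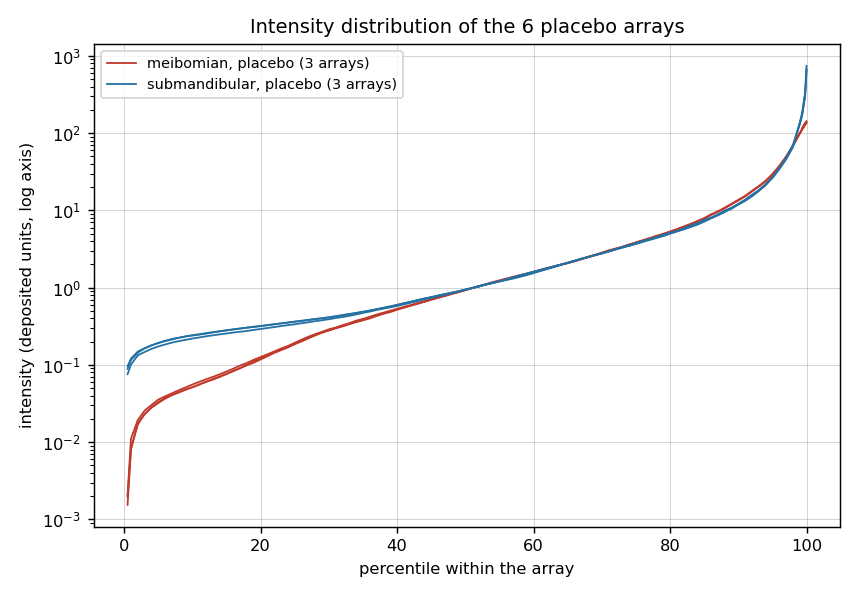
Intensity in deposited units (log axis) against the percentile within the array for the 3 meibomian (red) and 3 submandibular (blue) placebo arrays. The curves of both glands run together between about the middle and the 98th percentile, the meibomian curves lie lower at the dim end, and they end at maxima between 134.6 and 142.9, against 647 to 743 in the submandibular gland.

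Below, a level is a mean intensity ± SD over n = 3 pools, and a log2 difference is the meibomian minus the submandibular mean of log2(intensity + 0.174), ± SE. The offset of 0.174 makes differences of dim probes smaller than the ratio of their intensities. The SE takes its spread from all 18 arrays, so it can be wide where the placebo pools lie close together. A probe is called when its Benjamini-Hochberg adjusted p in limma, over all tested probes, is under 0.05. On the log2 scale 4973 probes were called, of which 2283 (30.6%) were higher and 2690 (36%) lower in the meibomian gland. At least 2-fold differences were called for 1188 higher and 1387 lower probes, and at least 30-fold differences for 50 higher and 44 lower probes. The 3 pools of the glands did not overlap for 4868 of the called probes and for 5667 of all tested probes. Without the filter on dim probes 7160 probes were called and 32.5% of the calls, against 45.9% with the filter, were higher in the meibomian gland. On percentile ranks without the filter that share was 47.5%.

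On percentile ranks 4773 probes were called, 2257 (30.2%) higher and 2516 (33.7%) lower in the meibomian gland. The same direction was called on both scales for 4539 probes, which is 91.3% of the log2 calls and 95.1% of the rank calls. Calls on the log2 scale alone were 136 higher and 288 lower probes. Only 10 probes were called in opposite directions, and all of them were lower in the meibomian gland on the log2 scale and higher on ranks. In the dimmest 10th of the tested probes the median log2 difference was -0.54, with 93 probes higher and 405 lower, against 116 higher and 203 lower on ranks.

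**Figure D2:**
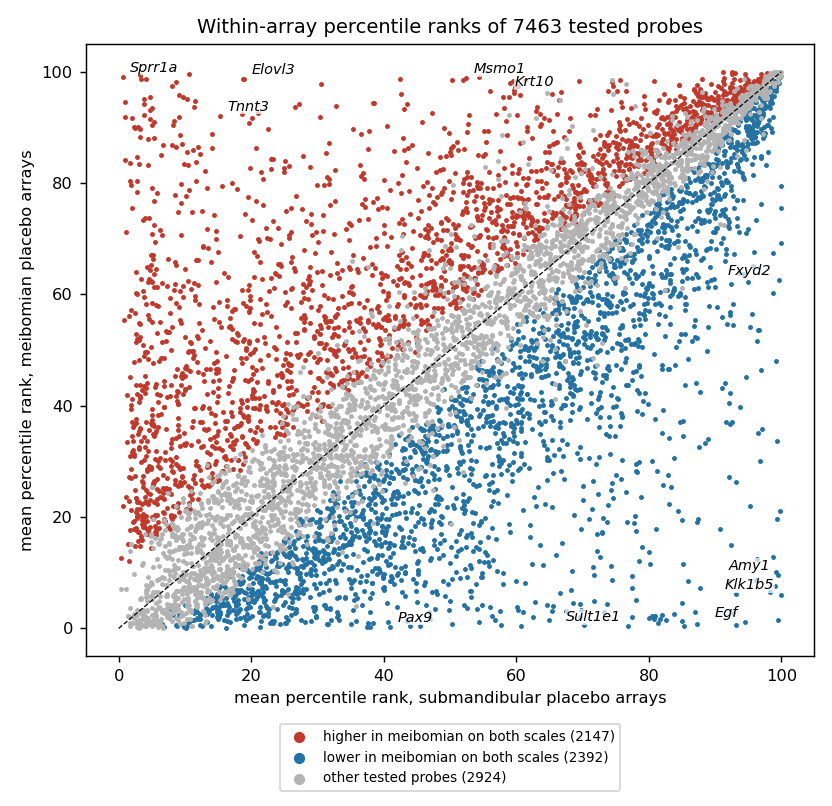
Mean percentile rank within the meibomian placebo arrays (vertical axis) against that within the submandibular placebo arrays (horizontal axis) for 7463 tested probes. Red points (2147) were called higher and blue points (2392) lower in the meibomian gland on both scales, and the leading genes of each gland lie in the corners away from the dashed line of equal rank.

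Genes of the cornifying epithelium and of very long fatty acid synthesis led the probes higher in the meibomian gland. Sprr1a, a precursor of the cornified envelope, read 108, 109 and 117 in the meibomian pools, against 0.205, 0.144 and 0.140 in the submandibular pools. Elovl4, the elongase of very long chain fatty acids, read 122, 126 and 128 in meibomian pools and 0.203, 0.344 and 0.246 in submandibular pools. All 3 meibomian pools of both genes stood near the top of the array and all submandibular pools near the bottom. The log2 difference was 8.38 ± 0.18 for Sprr1a (adjusted p = 3.1e-15) and 8.17 ± 0.22 for Elovl4 (adjusted p = 2.2e-14). Both were near the meibomian ceiling, meaning that a meibomian placebo array read them at more than 0.8 of its maximum. Elovl3, an elongase of sebaceous glands and brown fat, read 99, 105 and 103 in the meibomian pools and 0.627, 0.629 and 0.635 in the submandibular pools, a log2 difference of 6.99 ± 0.14, with mean percentile ranks of 98.7 on meibomian and 19.0 on submandibular arrays. Scd3, a stearoyl-CoA desaturase of sebaceous glands, differed by 6.39.

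The other leading probes came mostly from stratified epithelium. Dmkn, a secreted protein of the upper epidermis, averaged 104 ± 2.21 in the meibomian gland and 0.292 ± 0.0176 in submandibular pools, and Lgals7, galectin-7 of stratified epithelia, 130.5 ± 5.21 in meibomian pools and 0.443 ± 0.0385 in submandibular pools. Gsdma, a gasdermin of skin, differed by 7.30, Krt1, a keratin of the suprabasal epidermis, by 6.97 and Krt13, a keratin of wet stratified epithelia, by 6.23. The pools of Krt1 were uneven, with 49.1, 24.5 and 49.7 in the meibomian gland. Aqp3, a water and glycerol channel, read 42.0, 46.3 and 38.5 in the meibomian pools and 0.169, 0.275 and 0.376 in the submandibular pools. Defb1, a beta-defensin (6.54), Emp1 (6.4), Ifitm7 (7.03), Tmem45a (7.0) and the hair keratin partner Krtap6-1 (6.29) completed the 15 largest differences in this direction among probes with a gene name. An unnamed probe differed by 8.22. No pools overlapped in any of them.

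Secreted salivary proteins led the probes lower in the meibomian gland, together with several genes that are not known as salivary products. Klk1b5, a kallikrein of the granular tubules, read 0.275, 0.281 and 0.158 in the meibomian pools and 647, 672 and 743 in the submandibular pools, where it was the brightest probe of each array. Its log2 difference was -10.72 ± 1.02 (adjusted p = 1.2e-07). The mouse glandular kallikreins are near-identical copies, so the probe may read several of them. Egf, the epidermal growth factor of the same tubules, read 0.0694, 0.0450 and 0.0974 in the meibomian pools and 33.7, 38.2 and 33.9 in the submandibular pools, a log2 difference of -7.18 ± 0.20.

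Of the acinar enzymes, Amy1, salivary amylase, read 0.277, 0.390 and 0.333 in meibomian pools and 284, 246 and 240.1 in submandibular pools. Chia1, the acidic mammalian chitinase, read 0.140, 0.0912 and 0.0359 in meibomian pools and 292, 243 and 212 in submandibular pools. The groups were far apart for both genes, although Chia1 had a wide standard error, -9.89 ± 1.85. The 18 arrays were fitted together, and in the testosterone submandibular pool C the Chia1 probe read 1.32 against 273 and 294 in the other testosterone submandibular pools. Chil3, a chitinase-like protein, differed by -7.14 ± 1.38 and read 0.212 in that same pool. Lpo, the lactoperoxidase of saliva and tears, differed by -8.06 ± 0.20, and Car6, the secreted carbonic anhydrase, averaged 4.61 ± 0.650 in meibomian pools and 509 ± 31.6 in submandibular pools.

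Probes annotated to Fgf5, Il3, Th, Mymk and Plcl2 were also among the brightest of the submandibular gland. Th, which encodes tyrosine hydroxylase, read 0.291, 0.371 and 0.388 in the meibomian pools and 170.3, 193 and 185 in the submandibular pools. Fgf5, a growth factor of the hair cycle, averaged 0.624 ± 0.0462 in meibomian pools and 337 ± 21.1 in submandibular pools, and Il3, a cytokine of blood cell formation, 0.286 ± 0.0332 in meibomian pools and 170.5 ± 18.4 in submandibular pools. Mymk, a protein of muscle cell fusion, differed by -8.22 ± 0.72 and Plcl2 by -7.57 ± 0.19. In the placebo lacrimal gland the same probes averaged 1.48 ± 0.145 for Th, 4.89 ± 0.537 for Fgf5 and 3.64 ± 1.26 for Il3. These names come from the platform annotation, and the probe sequences were not used here. An unnamed probe differed by -8.07. The remaining named leaders were Aass, an enzyme of lysine breakdown (-6.71), Egr3, a zinc finger transcription factor (-6.63) and Smap1 (-6.35).

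**Figure D3:**
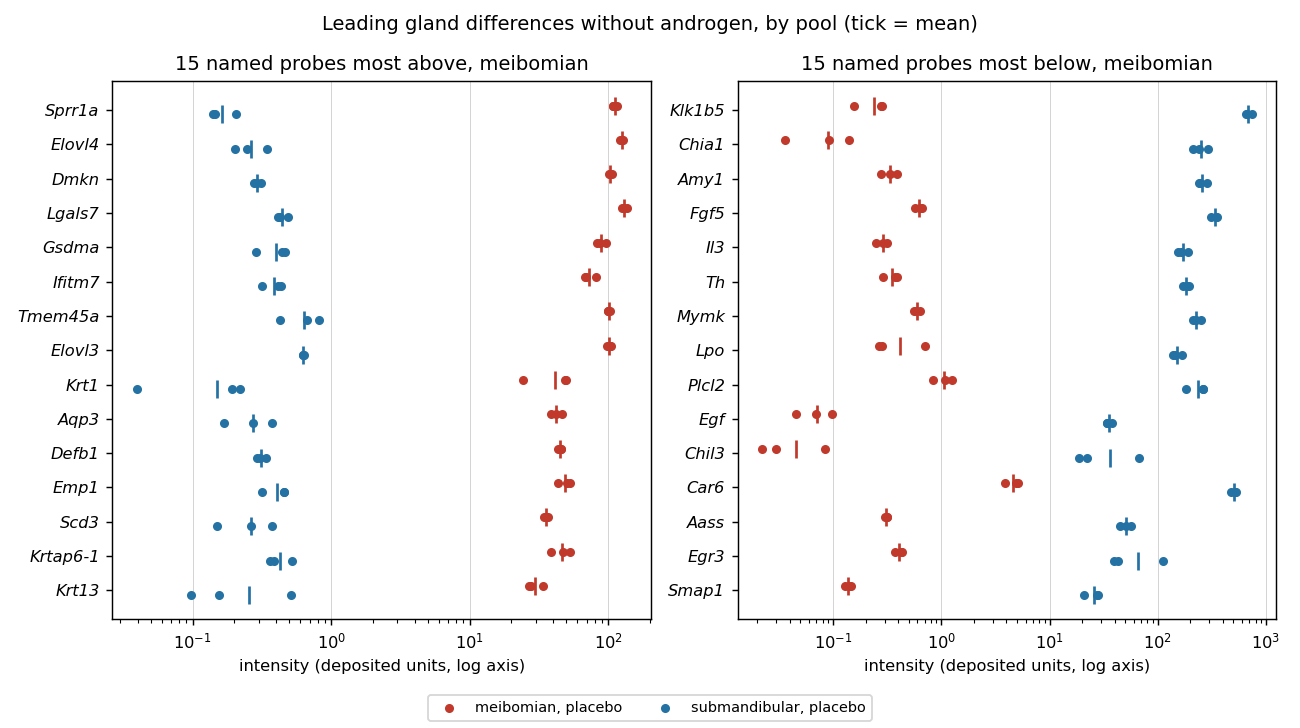
Intensity (log axis, deposited units) of the 15 probes with a gene name that were most above (left panel) and the 15 that were most below (right panel) in the meibomian gland, with 1 point per pool of the meibomian (red) and submandibular (blue) placebo groups and a tick at each mean. No point of one gland reaches the other gland's points for any of the 30 probes, and Krt1, Chil3 and Egr3 show the widest scatter among the pools that are bright.

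Genes that mark sebaceous cells and lipid droplets were higher in the meibomian gland in 18 of 23 tested probes and lower in 3, with a median log2 difference of 3.44. The median over all tested probes was -0.08, and the shares over all probes were 30.6% higher and 36% lower. Plin2, a coat protein of lipid droplets, read 92.9, 96.8 and 97.6 in meibomian pools and 3.36, 2.15 and 4.50 in submandibular pools, a log2 difference of 4.83 ± 0.20. Cidea, which drives droplet fusion, read 101, 88.7 and 87.1 in meibomian pools and 3.16, 1.45 and 5.73 in submandibular pools, so that the submandibular pools were uneven. Acsbg1, an acyl-CoA synthetase, differed by 5.22 ± 0.28. The 3 lower members were genes that fat cells also use. Thrsp, a lipogenic nuclear protein, averaged 0.399 ± 0.162 in meibomian pools and 8.10 ± 4.05 in submandibular pools, Fabp4, the fatty acid binding protein of adipocytes, differed by -1.87 and Lipe, hormone-sensitive lipase, by -1.11. In whole glands, fewer cells of a type and less RNA per cell cannot be told apart.

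Cholesterol synthesis was higher in the meibomian gland in 11 of 13 tested probes, with none lower and a median log2 difference of 2.58. Msmo1, the sterol C4-methyl oxidase, read 103, 104 and 107 in meibomian pools and 2.29, 1.82 and 2.53 in submandibular pools, a log2 difference of 5.47 ± 0.13 (adjusted p = 5.4e-15). Cyp51, lanosterol demethylase, read 50.1, 48.0 and 54.4 in meibomian pools and 1.95, 1.20 and 1.38 in submandibular pools. Fdps, which makes farnesyl diphosphate, averaged 104 ± 1.39 in meibomian pools and 14.7 ± 3.03 in submandibular pools. Steps late in the pathway followed, with Hsd17b7 at 2.87, Nsdhl at 2.67 and Tm7sf2 at 2.62. When any 1 of the 6 pools was left out, the count of higher probes was again 11.

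Fatty acid and glycerolipid synthesis was mixed, with 16 of 26 probes higher (61.5%) and 6 lower (23.1%) in the meibomian gland (median 0.93). The shares over all probes were 30.6% and 36%. Enzymes of chain elongation were among the higher ones. Hacd2, a dehydratase of the elongation cycle, read 73.2, 77.7 and 73.4 in meibomian pools and 3.20, 2.43 and 3.59 in submandibular pools, Elovl1 differed by 3.95 ± 0.16 and Hsd17b12, the reductase of that cycle, by 3.33 ± 0.31. Me1, malic enzyme and a source of NADPH, differed by 3.77, and the acyltransferases Agpat1 and Agpat3 by 2.19 and 2.16. Lower in the meibomian gland were Lpin1, a phosphatidate phosphatase (-1.82), Mlxipl, the carbohydrate-responsive factor ChREBP (-1.63) and Gpd1, glycerol-3-phosphate dehydrogenase (-1.62).

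Oxidation of fatty acids in mitochondria and peroxisomes had 19 of 36 probes higher (52.8%) and 6 lower (16.7%) in the meibomian gland (median 0.54). The shares over all probes were 30.6% and 36%. Acox2, a peroxisomal oxidase of branched fatty acids, read 17.2, 17.4 and 18.1 in meibomian pools against 0.789, 0.371 and 0.422 in submandibular pools. Both probes of the peroxisomal membrane protein Pxmp4 were higher, by 2.72 and 2.55, and the carnitine system followed with Slc25a20, its carrier, at 2.71 and Crat, its acetyltransferase, at 2.49. Abcd3, a peroxisomal fatty acid transporter, differed by 1.84. The lower members differed by less than 2-fold, with Pex11a, a peroxisome division protein, at -0.95, and Acads and Acadl, mitochondrial acyl-CoA dehydrogenases, at -0.88 and -0.71.

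Ceramide and sphingolipid enzymes were higher in 10 (58.8%) and lower in 4 (23.5%) of 17 probes (median 0.48). The shares over all probes were 30.6% and 36%. Smpd1, acid sphingomyelinase, averaged 18.4 ± 0.0844 in meibomian pools and 4.19 ± 0.421 in submandibular pools. Both subunits of serine palmitoyltransferase, the first step, were higher, Sptlc1 by 1.56 and Sptlc2 by 1.14, as were Sgpl1, sphingosine phosphate lyase (1.77), the ganglioside enzyme St3gal5 (1.43) and the skin lipoxygenase Alox12b (1.09). Lower were B4galt6, lactosylceramide synthase (-1.74), Sphk2, a sphingosine kinase (-1.34) and the neutral ceramidase Asah2 (-1.28).

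Cornified envelope and barrier genes had the largest median of the 33 lists, 4.66, with 28 of 30 probes higher in the meibomian gland, 1 lower and 1 not called. Their intensities summed to 996 to 1066 on the meibomian arrays and 28.5 to 37.2 on the submandibular arrays. Beside Sprr1a, Dmkn and Gsdma, the envelope precursor Scel, sciellin, read 42.6, 38.2 and 40.1 in meibomian pools and 0.434, 0.523 and 0.441 in submandibular pools. Stfa3, a cysteine protease inhibitor, differed by 6.05 ± 0.20. Sprr2a1, of a family of near-identical copies, read 40.04, 18.9 and 21.0 in meibomian pools, with pool A about 2-fold above the others, and 0.300, 0.0790 and 0.203 in submandibular pools. Loricrin (Lor), a main envelope protein of dry epidermis, was the exception, at 0.894 ± 0.0687 in meibomian pools and 1.56 ± 0.395 in submandibular pools (log2 difference -0.68 ± 0.20, adjusted p = 0.0081).

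Promoter sequences are shown for genes of lists that moved together and for Amy1, from the leading lower genes. They are from RefSeq on GRCm38.p6 and cover 250 bases before to 50 after an annotated start, written along the gene's own strand. The letters TGANTCA, a site form bound by AP-1 factors, were found on either strand in 10 of the 24 cornified envelope genes with a promoter in the table (41.7%), in 22 of 104 genes called at least 10-fold higher in the meibomian gland (21.2%) and in 7.54% of 5239 tested genes. It occurred in 5.48% of 73 genes called at least 10-fold lower there. The 10-fold sets also needed the same call on ranks, and the higher set includes cornified envelope genes such as Sprr1a. A match describes the letters and no binding was measured. The promoter of Sprr1a is on the minus strand at chr3:92485832-92486131 and holds the letters at 2 places, that of Scel is on the plus strand at chr14:103513091-103513390, and that of Lor, the member lower in the meibomian gland, is on the minus strand at chr3:92083093-92083392. Capitals mark the matches to TGANTCA.
Sprr1a: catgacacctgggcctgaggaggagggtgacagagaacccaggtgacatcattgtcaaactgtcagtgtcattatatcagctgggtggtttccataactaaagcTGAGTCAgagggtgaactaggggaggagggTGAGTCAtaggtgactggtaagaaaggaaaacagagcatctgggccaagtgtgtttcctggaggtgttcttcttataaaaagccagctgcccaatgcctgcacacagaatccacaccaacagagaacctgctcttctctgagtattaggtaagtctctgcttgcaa
Scel: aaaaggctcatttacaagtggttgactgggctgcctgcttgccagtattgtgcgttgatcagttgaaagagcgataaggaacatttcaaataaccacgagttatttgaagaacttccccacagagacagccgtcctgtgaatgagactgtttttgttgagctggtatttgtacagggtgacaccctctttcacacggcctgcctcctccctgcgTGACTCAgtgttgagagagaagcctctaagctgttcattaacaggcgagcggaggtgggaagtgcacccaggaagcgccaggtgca
Lor: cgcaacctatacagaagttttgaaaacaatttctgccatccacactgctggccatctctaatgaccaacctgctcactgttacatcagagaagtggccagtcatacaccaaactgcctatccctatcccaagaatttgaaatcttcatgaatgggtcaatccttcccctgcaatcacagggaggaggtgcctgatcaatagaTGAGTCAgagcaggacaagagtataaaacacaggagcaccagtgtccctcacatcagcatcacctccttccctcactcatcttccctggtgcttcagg

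The letters CCAAT, bound by the factor NF-Y, occurred in the promoters of 10 of 10 cholesterol synthesis genes with a table entry and in 42.9% of tested genes. Msmo1, the gene of that list with the largest difference, holds them at 3 places on the minus strand at chr8:64733529-64733828. The letters TATAAA, the core of a TATA box, occurred in 26.9% of 104 genes called at least 10-fold higher and in 24.7% of 73 genes called at least 10-fold lower in the meibomian gland, against 11.1% of tested genes. Amy1 holds them on the minus strand at chr3:113574713-113575012. Motifs were searched on both strands, and further ones were counted. In the 10 cholesterol synthesis genes GGGCGG occurred in 9, against 65% of tested genes, CACGTG in 3 (12.5% of tested genes) and TGANTCA in 2. TATAAA and TCACNCCAC, the latter in 1.62% of tested genes, occurred in 0 of the 10. In the 24 cornified envelope genes TATAAA occurred in 37.5%, CCAAT in 41.7%, GGGCGG in 20.8% and TCACNCCAC and CACGTG in 0. Capitals mark CCAAT in Msmo1 and TATAAA in Amy1.
Msmo1: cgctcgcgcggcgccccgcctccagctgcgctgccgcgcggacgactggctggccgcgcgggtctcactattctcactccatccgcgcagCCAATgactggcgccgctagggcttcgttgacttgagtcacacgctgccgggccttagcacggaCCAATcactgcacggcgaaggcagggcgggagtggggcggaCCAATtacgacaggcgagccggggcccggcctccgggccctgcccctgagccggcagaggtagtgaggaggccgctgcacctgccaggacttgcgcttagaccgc
Amy1: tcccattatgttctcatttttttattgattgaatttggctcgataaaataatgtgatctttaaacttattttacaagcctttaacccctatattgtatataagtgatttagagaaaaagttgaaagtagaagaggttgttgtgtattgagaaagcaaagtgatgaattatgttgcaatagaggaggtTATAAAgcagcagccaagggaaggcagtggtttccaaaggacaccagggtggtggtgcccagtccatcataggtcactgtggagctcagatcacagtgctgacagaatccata

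Epidermal keratins were higher in the meibomian gland in 8 of 9 tested probes (median 3.77). Krt10, the suprabasal partner of Krt1, read 60.7, 51.4 and 59.2 in meibomian pools and 3.13, 5.03 and 4.10 in submandibular pools. Krt17, of ducts and appendages, differed by 5.42 ± 0.18, Krt15, of basal cells, by 3.91 ± 0.21 and Krt75, of the hair follicle's companion layer, by 3.36 ± 0.14. Trp63, the p63 factor of stratified epithelia, averaged 14.4 ± 0.901 in meibomian pools and 1.65 ± 0.668 in submandibular pools.

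Keratins of the hair follicle and their partners were higher in 13 of 17 probes and lower in 3. Krt71, of the inner root sheath, read 27.1, 24.1 and 28.4 in meibomian pools and 0.634, 0.587 and 0.645 in submandibular pools, and Krt27, of the same layer, differed by 4.02 ± 0.15. S100a3, of the hair cuticle, differed by 6.13 ± 0.19, Krt34 by 3.51 and Krtap9-1 by 4.16. The 3 lower members were the Fgf5 probe, the homeobox gene Dlx3 (-1.30) and Krtap3-1 (-0.81). Eyelid skin carries lashes and hairs, and the share of follicle RNA in the meibomian pools was not tested.

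Genes of desmosomes and basal adhesion had 9 of 20 probes higher (45%) and 3 lower (15%) in the meibomian gland. The shares over all probes were 30.6% and 36%. Gja1, connexin 43, read 9.80, 8.56 and 11.1 in meibomian pools and 0.547, 0.828 and 1.01 in submandibular pools. Dsg1a, desmoglein 1, differed by 3.22 ± 0.16, Gjb5, a skin connexin, by 2.91 ± 0.16, Perp by 2.81 ± 0.20, Pkp3 by 1.97 and Dsp, desmoplakin, by 1.47. The integrins Itga3 (-1.33) and Itgb1 (-0.80) and the laminin chain Lamb3 (-0.45, adjusted p = 0.028) were lower. Lamb3 was not called on ranks, nor without meibomian pool A or C or submandibular pool B.

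Skeletal muscle genes were mostly higher in the meibomian gland. Of 42 tested probes of striated muscle, 31 were higher and 7 lower, with a median log2 difference of 2.0, and the list summed to 379 to 464 on the meibomian arrays and 60.4 to 93.3 on the submandibular arrays. Tnnt3, fast troponin T, read 29.9, 21.3 and 26.1 in meibomian pools and 0.638, 0.451 and 0.553 in submandibular pools. Tnnc2, fast troponin C, read 88.0, 69.4 and 82.8 in meibomian pools and 3.17, 0.826 and 0.280 in submandibular pools, where pool A was the highest. Acta1, skeletal actin, differed by 4.86 ± 0.32, Mylpf, fast regulatory light chain, by 4.77 ± 0.31, the calcium pump Atp2a1 by 4.48 ± 0.37 and Pvalb, parvalbumin, by 4.47 ± 0.25. Lower members were Cox7a1, a muscle and brown fat subunit of cytochrome oxidase (-1.64), Chrnd, of the acetylcholine receptor (-1.63) and Sgca, sarcoglycan alpha (-1.24). The tarsal plate borders on eyelid muscle, and the part of muscle fibres in the other differences was not tested.

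Fibroblast and matrix genes were higher in 41 of 64 probes and lower in 7 (median 1.04). Tnc, tenascin C, read 10.8, 10.0 and 10.3 in meibomian pools and 0.917, 0.766 and 1.0 in submandibular pools, and Fbln1, fibulin 1, 2.57, 3.09 and 2.39 in meibomian pools and 0.200, 0.304 and 0.157 in submandibular pools. S100a4 differed by 2.96 ± 0.15, Dpt, dermatopontin, by 2.55 ± 0.36, Col1a1, of collagen I, by 2.29 ± 0.24 and Igfbp4 by 2.23 ± 0.13. Lower were Ly6c1 (-4.61), which endothelium also expresses, the dipeptidase Dpep1 (-2.02) and Col4a1, of basement membrane collagen (-1.06).

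Smaller lists of accompanying cells went both ways. Pigment cell genes were higher in 3 of 4 probes, led by Dct, dopachrome tautomerase, at 6.79 ± 0.710 in meibomian pools and 0.317 ± 0.106 in submandibular pools, and Pmel at 2.87 ± 0.19. BALB/c mice are albino. Kit (0.64) was not called on ranks, while Ednrb was lower (-0.50). Kit was not called without meibomian pool A or B or submandibular pool B or C, and Ednrb not without pool A of either gland. Without meibomian pool A the list had 2 higher probes and none lower. Endothelial genes had 1 higher (6.25%) and 5 lower (31.25%) of 16 probes, against 30.6% and 36% over all probes. The share of lower probes was thus near that over all probes. After quantile normalization over 18 arrays 3 were lower. The receptors Flt4 (-1.33) and Kdr (-1.30), Sele (-0.76), Emcn (-0.69) and Lyve1 (-0.52) were lower and Eng, endoglin, was higher (0.84). On ranks Sele and Lyve1 were not called.

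Smooth muscle and myoepithelium had 3 higher and 3 lower of 9 probes (33.3% each), against 30.6% higher and 36% lower over all probes. Des, desmin, which skeletal muscle also expresses, differed by 2.88 ± 0.22, Actg2, enteric actin, by 2.18 ± 0.16 and Smtn by 1.36 ± 0.14. Cnn1, calponin of contractile cells, averaged 9.14 ± 0.575 in meibomian pools and 33.9 ± 2.73 in submandibular pools, and Tpm2 (-0.86) and Kcnmb1 (-0.46, not called on ranks) were also lower. Schwann cell and nerve genes had 4 higher (30.8%) and 6 lower (46.2%) of 13 probes. Egr2 read 44.0, 35.7 and 47.3 in meibomian pools and 0.461, 0.504 and 0.338 in submandibular pools, Mal differed by 3.69 ± 0.19 and Cryab, an alpha-crystallin chaperone, by 3.31 ± 0.16. Beside the Th probe described above (-8.45), Sox10 was lower, at 0.387 ± 0.0557 in meibomian pools and 11.8 ± 3.52 in submandibular pools. The connexin Gjb1 (-5.17), Gfap (-2.91), Snap25 (-0.50) and L1cam (-0.38, adjusted p = 0.047) were lower too. Gfap was uneven in the submandibular pools, at 6.34, 1.59 and 13.5. L1cam was not called on ranks and lost its call without meibomian pool A or C or submandibular pool A or B. Several of these genes are also active in epithelia, so the lists do not mark 1 cell type each.

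**Figure D4:**
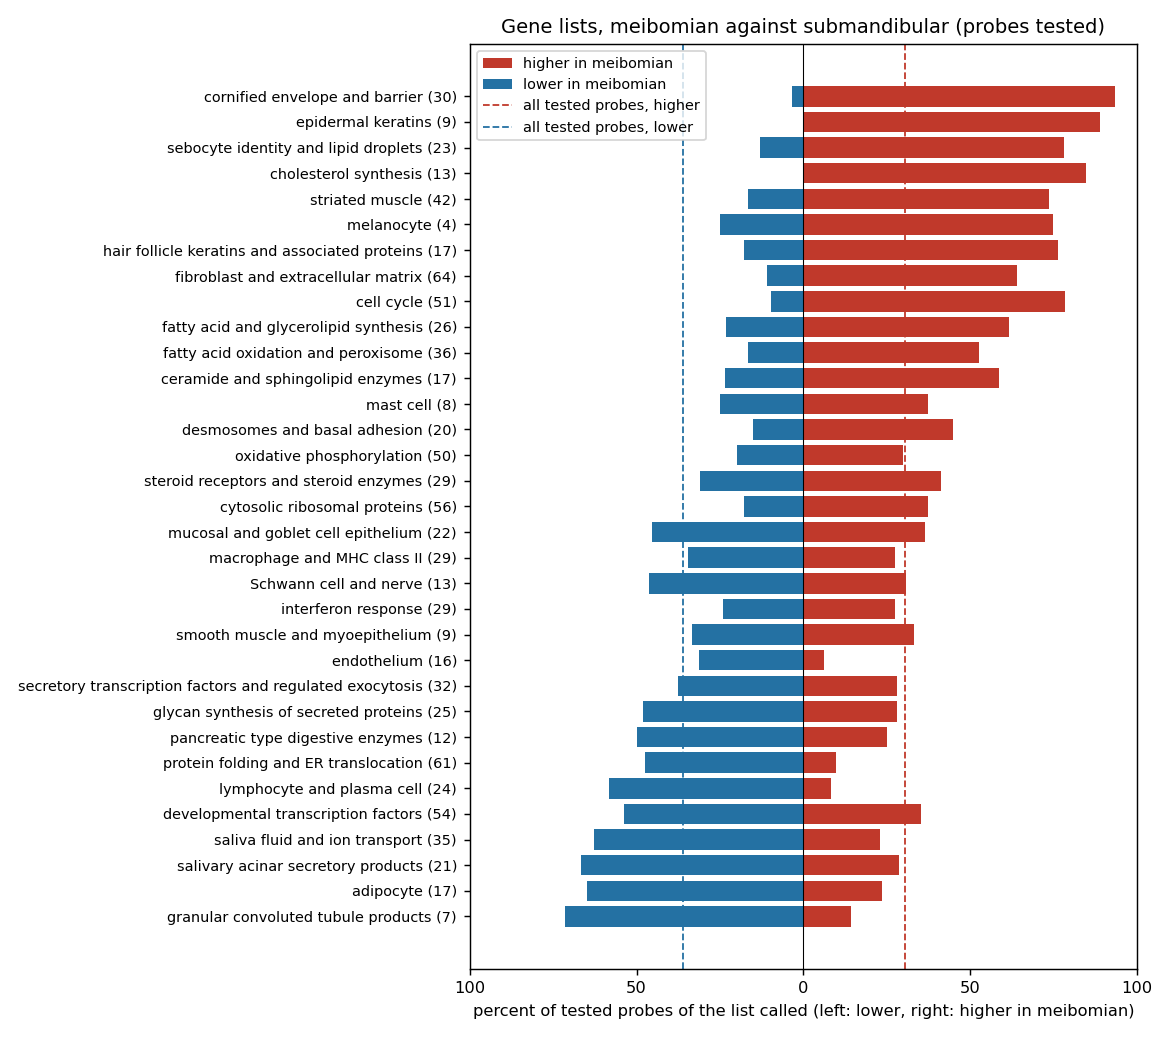
Percent of the tested probes of each gene list called higher (red, right) or lower (blue, left) in the meibomian gland, ordered by median log2 difference, with the number of tested probes in brackets. Dashed lines give the same shares over all tested probes, 30.6% higher and 36% lower, and the cornified envelope list stands at the top and the granular tubule list at the bottom.

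Products of the submandibular granular tubules were lower in the meibomian gland in 5 of 7 tested probes and higher in 1. Their sums were 14.1 to 15.3 on the meibomian arrays and 697 to 792 on the submandibular arrays, where the Klk1b5 probe alone read 647 to 743. The median log2 difference of the list was -1.45. Beside Klk1b5 and Egf, Smr2, a secreted submandibular protein, read 1.76, 1.78 and 2.03 in meibomian pools and 4.50, 5.11 and 4.94 in submandibular pools, a log2 difference of -1.31 ± 0.15. Agt, angiotensinogen, differed by -1.45 ± 0.20 and Tgfb2 by -1.53 ± 0.18. Nrtn, neurturin, was the member that was higher, at 10.5 ± 0.586 in meibomian pools and 6.72 ± 0.113 in submandibular pools.

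Acinar secretory products were lower in 14 and higher in 6 of 21 probes (median -1.23). Tcn2, transcobalamin 2, read 2.37, 2.23 and 1.76 in meibomian pools and 51.3, 50.2 and 56.3 in submandibular pools. Pigr, the receptor that carries IgA into secretions, differed by -3.67 ± 0.30. Scgb1b2, a secretoglobin, read 3.82, 98.3 and 3.40 in meibomian pools and 439, 447 and 467 in submandibular pools. Its meibomian pool B stood far above the others, and in the placebo lacrimal gland it averaged 1001 ± 35.7. Slpi, a secreted protease inhibitor, went the other way, at 16.3, 15 and 17.3 in meibomian pools and 0.271, 0.235 and 0.383 in submandibular pools, as did Ltf, lactoferrin (3.63 ± 0.26) and Ptgds, prostaglandin D synthase (2.69 ± 0.18).

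Factors of secretory cells and of regulated exocytosis had 9 of 32 probes higher and 12 lower, close to the shares over all probes. Without submandibular pool A the counts were 9 and 9. Bhlha15, the Mist1 factor of acinar cells, read 0.0775, 0.118 and 0.114 in meibomian pools and 8.63, 6.68 and 7.95 in submandibular pools, a log2 difference of -4.83 ± 0.33. Spdef, an Ets factor of mucous cells, differed by -3.91 ± 0.44 and Creb3l1 by -3.77 ± 0.75. The vesicle proteins Rab27a (-1.19) and Rab3a (-1.85) were lower, although Rab3a rests on submandibular pools that read 3.54, 3.64 and 0.488. Higher in the meibomian gland were Cpe, carboxypeptidase E, at 59.4 ± 4.30 in meibomian pools and 2.56 ± 0.370 in submandibular pools, Stx2 (2.11) and Gp2, a granule membrane protein of the pancreas, at 20.9 ± 7.91 in meibomian pools and 0.271 ± 0.0287 in submandibular pools.

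Fluid and ion transport of saliva was lower in 22 and higher in 8 of 35 probes (median -0.92). Fxyd2, a regulator of the sodium pump, read 3.66, 3.50 and 3.0 in meibomian pools and 273, 286 and 278 in submandibular pools, a log2 difference of -6.30 ± 0.24 (adjusted p = 1.2e-12). Ascl3, the factor that marks a duct cell lineage, averaged 1.48 ± 0.122 in meibomian pools and 23.4 ± 0.138 in submandibular pools. Cftr, the chloride channel, differed by -3.40 ± 0.21, the potassium channel Kcnn4 by -2.84 ± 0.13 and both probes of Kcnma1, the BK channel, by -3.82 and -2.61. Higher members beside Aqp3 were Atp1b3, a sodium pump subunit (2.04) and Aqp1, a water channel of vessels (1.59).

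Mucosal and goblet cell genes were split, 8 higher (36.4%) and 10 lower (45.5%) of 22, against 30.6% and 36% over all probes. The tight junction genes Cldn10 (-5.79 ± 0.20) and Cldn8 (-3.08 ± 0.31), the membrane mucin Muc13 (-3.31 ± 0.23) and Foxa1 (-2.89 ± 0.12) were lower in the meibomian gland. Tff1, a trefoil peptide of goblet cells, read 22.2, 32.5 and 17.5 in meibomian pools and 0.501, 0.363 and 0.320 in submandibular pools. Krt19, a keratin of ducts and conjunctiva, read 36.2, 38.7 and 32.2 in meibomian pools and 0.829, 0.826 and 0.863 in submandibular pools. Both were clearly apart, and whether conjunctiva was in the meibomian pools was not tested.

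Protein folding and ER translocation genes had 29 of 61 probes lower and 6 higher (median -0.47). Sdf2l1, an ER chaperone partner, read 2.57, 2.48 and 2.51 in meibomian pools and 21.2, 19.9 and 19.1 in submandibular pools, and Tram1, of the translocon, 19.6, 19.6 and 23.5 in meibomian pools and 88.2, 97.4 and 78.5 in submandibular pools. Sil1 (-2.24), Dnajc3 (-1.95) and Sec63 (-1.66), which work with the chaperone BiP, and Ero1b, an oxidase of secretory cells (-1.65), were lower as well. Its relative Ero1a was higher (1.89 ± 0.15), as were Hspa5, which is BiP itself (0.60), and Arf1 (0.73), which had no value on meibomian array A.

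Glycan synthesis had 12 of 25 probes lower (48%) and 7 higher (28%), against 36% and 30.6% over all probes. Galnt3, which starts O-glycans, averaged 5.61 ± 0.154 in meibomian pools and 14.9 ± 1.12 in submandibular pools. B3gnt3 (-1.76), Hs3st1 (-1.92) and Man1a (-1.43) were lower, and both St3gal6 probes were, at -1.30 and -1.40. St3gal4, a sialyltransferase, differed by -2.62 ± 0.60, with submandibular pools of 39.6, 36.2 and 4.04. Man2a1 (1.36) and St6galnac2 (1.48) were higher, and the probes of Mgat3 disagreed, at -1.01 and 1.87. Mgat3 is 1 of 6 genes, among 88 with several tested probes, whose probes were called in both directions.

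Digestive enzymes of the pancreatic type had 6 of 12 probes lower (50%) and 3 higher (25%), against 36% and 30.6% over all probes. When the filter on dim probes used the 6 placebo arrays alone, 3 were lower and 3 higher. Ctrb1, chymotrypsinogen, read 0.901, 0.551 and 0.838 in meibomian pools and 12.3, 8.46 and 8.92 in submandibular pools, and Clps, colipase, differed by -3.17 ± 0.53. Pnliprp1, a lipase-related protein, was uneven in both glands, with 0.285, 1.88 and 0.144 in meibomian pools and 16.9, 1.09 and 40.4 in submandibular pools, and the pools overlapped. It averaged 524 ± 39.5 in the placebo lacrimal gland. Reg2 (-1.12), Cpb1 (-0.92) and Pnliprp2 (-0.49) were lower on dim probes. Cpb1 and Pnliprp2 were not called on ranks, and Pnliprp2 had the opposite sign after quantile normalization and no call without pool A of either gland. Reg3g, an antimicrobial lectin, was higher (1.54 ± 0.38), and so was Cela1 (0.42, adjusted p = 0.027), whose call was lost without meibomian pool B or C or submandibular pool B.

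Fat cell markers were mostly lower in the meibomian gland. Of 17 adipocyte probes 11 were lower and 4 higher in the meibomian gland (median -1.34). Ucp1, the uncoupling protein of brown fat, read 0.0801, 0.0740 and 0.0983 in meibomian pools and 4.34, 2.12 and 0.420 in submandibular pools. Pck1, of glyceroneogenesis, read 0.159, 0.151 and 0.234 in meibomian pools and 3.27, 2.20 and 8.89 in submandibular pools. The order of the submandibular pools was not the same for these genes, with Ucp1 highest in pool A and Pck1 in pool C. Car3, a carbonic anhydrase of fat and muscle, differed by -2.61 ± 0.28 and Slc2a4, the insulin-dependent glucose transporter, by -1.66 ± 0.69, where submandibular pool C read 0.229, the pools overlapped and ranks gave no call. Without that pool its difference was -2.94, and without any other pool it was not called. Higher in the meibomian gland were Cd36, a fatty acid transporter (3.02 ± 0.26), Apoc1 (2.55 ± 0.18) and Cebpa (2.35 ± 0.18), which sebaceous cells also use. The part of fat around the gland in other submandibular values was not tested.

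Lymphocyte and plasma cell genes were lower in 14 and higher in 2 of 24 probes. Cd79a, of the B cell receptor, read 3.73, 4.66 and 4.12 in meibomian pools and 23.1, 19.0 and 22.4 in submandibular pools, and Jchain, which joins secreted IgA, 1.05, 0.874 and 0.842 in meibomian pools and 4.42, 7.31 and 7.41 in submandibular pools. Cd22 (-2.81), Cxcr5 (-1.78), Ighm (-1.66) and Cd79b (-1.51) were lower as well. The 2 higher members were Sdc1, syndecan 1, which epithelia also express, at 35.6 ± 0.872 in meibomian pools and 1.55 ± 0.272 in submandibular pools, and Tnfrsf17 (2.12). The counts without submandibular pool A were 10 lower and 5 higher, and with array weights 13 lower and 6 higher. After quantile normalization over the 6 placebo arrays they were 8 lower and 2 higher, and Cd79b was not called.

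Macrophage and MHC class II genes had 8 higher and 10 lower of 29 probes, close to the shares over all probes. Without meibomian pool A the counts were 5 higher and 9 lower. H2-Oa (-1.99), the factor PU.1 (Spi1, -1.14), Fcgr1 (-1.11), Ptprc (-0.98), Msr1 (-0.72) and C1qc (-0.66) were lower, and Itgam (1.44), Lyz1 (1.28) and Ctsc (2.36, and 1.40 without submandibular pool C) higher in the meibomian gland. Mast cell genes were split, 3 higher (37.5%) and 2 lower (25%) of 8, against 30.6% and 36% over all probes. The proteases Mcpt1 at -1.47 and Tpsab1 at -0.97 were lower, Mcpt2 at 0.62 was higher, and so was Slc6a4, the serotonin transporter, at 1.61.

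Interferon response genes were 8 higher (27.6%) and 7 lower (24.1%) of 29, against 30.6% and 36% over all probes. This balance rested on 1 meibomian pool. Igtp, a GTPase induced by interferon, read 0.983, 0.230 and 0.301 in meibomian pools and 1.96, 1.10 and 1.24 in submandibular pools. Without meibomian pool A the counts were 7 higher and 13 lower. Ifi202b was higher in all meibomian pools, at 8.80, 8.08 and 7.70 against 0.504, 0.531 and 0.637 in submandibular pools, and Gbp2 (2.03), Ifi47 (1.34), the immunoproteasome subunits Psmb8 (1.29) and Psmb9 (0.79) and Ifit3 (0.69) were higher with pool A above the others. Ifit3 was not called without meibomian pool A or B or submandibular pool C. Irf7 (-1.48) and Mx2 (-1.43) were lower.

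Cell cycle genes were higher in 40 of 51 probes and lower in 5 (median 1.02). Mki67, the proliferation marker Ki-67, read 10.8, 8.69 and 9.36 in meibomian pools and 0.862, 1.36 and 1.36 in submandibular pools. Cdk1, the mitotic kinase, read 6.91, 7.14 and 6.37 in meibomian pools and 0.752, 0.578 and 0.691 in submandibular pools. Birc5, survivin, differed by 2.95 ± 0.19, Stmn1 by 2.60 ± 0.17, Ccna2, cyclin A2, by 2.57 ± 0.23 and Top2a by 2.56 ± 0.27. The lower members named are factors of entry into the cycle and a ligase, Foxm1 (-2.93 ± 0.48), E2f1 (-1.14 ± 0.15) and Lig1 (-1.04 ± 0.11), and Foxm1 was uneven in the submandibular pools, at 17.1, 3.42 and 3.0.

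Transcription factors of development went both ways, with 19 higher (35.2%) and 29 lower (53.7%) of 54 probes, against 30.6% and 36% over all probes. Without the filter on dim probes 19 were higher and 53 lower. Twist2, a bHLH factor, read 1.67, 1.60 and 1.89 in meibomian pools and 65.8, 59.6 and 58.0 in submandibular pools. Pax9 read 0.0337, 0.0312 and 0.0237 in meibomian pools and 1.54, 1.26 and 1.35 in submandibular pools. Etv1, an Ets factor (-4.13 ± 0.16), Sox11 (-3.23 ± 0.28) and Elf5, a factor of secretory epithelia (-3.21 ± 0.11), were lower too. Beside Trp63, Osr2 (3.85 ± 0.18) and the forkhead factor Foxc2 (3.83 ± 0.19) were higher in the meibomian gland.

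Steroid receptors and steroid enzymes had 12 higher (41.4%) and 9 lower (31%) of 29 probes, against 30.6% and 36% over all probes. Hsd3b6, a 3-beta-hydroxysteroid dehydrogenase, read 19.2, 22.6 and 19.2 in meibomian pools and 0.300, 0.164 and 0.280 in submandibular pools. Hsd17b2, which oxidises testosterone and estradiol, read 7.11, 8.52 and 8.40 in meibomian pools and 0.223, 0.321 and 0.396 in submandibular pools. Akr1c18 (4.28 ± 0.17), the lipid receptor Pparg (3.47 ± 0.36), the sulfotransferase Sult2b1 (2.91 ± 0.25) and the retinoic acid receptor Rarg (1.68 ± 0.22) were also higher. Sult1e1, estrogen sulfotransferase, was lower, at 0.0280, 0.0467 and 0.0393 in meibomian pools against 6.38, 6.83 and 5.98 in submandibular pools, with Hsd11b1 (-3.08 ± 0.21) and Hsd17b3 (-1.47 ± 0.27), whose probe is dim in both glands and was not called on ranks. Fkbp5, a target of androgen and glucocorticoid receptors, was not called, at 0.651, 0.465 and 0.426 in meibomian pools and 1.19, 1.33 and 0.327 in submandibular pools (log2 difference -0.57 ± 0.31, adjusted p = 0.12). Its difference moved with the submandibular pools, to -0.35 without pool A (adjusted p = 0.372), -0.28 without pool B (adjusted p = 0.455) and -1.07 without pool C (adjusted p = 0.000282).

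For ribosomal proteins the balance of higher and lower probes depended on the scale. On the log2 scale 21 of 56 probes were higher and 10 lower in the meibomian gland, while on percentile ranks 43 were higher and 2 lower. After quantile normalization 48 were higher and 2 lower, and with all values capped at 134.6, the lowest maximum of the placebo arrays, 22 were higher and 2 lower. There were 82 tested probes near the meibomian ceiling, and 33 of them were ribosomal. Among these 33, 5 were called higher and 9 lower on the log2 scale, and among the other 23 ribosomal probes 16 were higher and 1 lower. Rpl6 read 135, 139 and 143 in meibomian pools and 185, 223 and 233 in submandibular pools, a log2 difference of -0.61 ± 0.15, yet it ranked at the percentile of 99.99 on meibomian arrays and 99.3 on submandibular arrays.

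The other 7 named ribosomal probes with opposite calls were like it. Rpl19, Rpl23, Rps23, Rpl15, Rpl7, Rpl5 and Rpl37a were called lower on the log2 scale, with differences from -0.36 for Rpl37a to -0.83 for Rps23, and higher on ranks. The log2 calls of Rpl5 and Rpl37a were lost when single pools were left out, at adjusted p of up to 0.0856 and 0.0766. With Rpl6, these 8 probes averaged between 133.9 and 138.9 in the meibomian gland. Other members were higher on both scales, with Rpl28 at 67.5, 67.5 and 61.1 in meibomian pools and 33.2, 29.6 and 29.8 in submandibular pools, and Rpl27 (0.98), Rpl27a (0.78), Rpl30 (0.78) and Rps18 (0.96) alike. Rplp0 was lower on both scales (-0.84), and the Rps20 probe was dim, at 0.476 ± 0.0211 in meibomian pools and 0.199 ± 0.0516 in submandibular pools. Among other probes bright in both glands, Eef1a1, the translation elongation factor, read 134, 137 and 143 in meibomian pools and 355, 381 and 403 in submandibular pools, and the Vgll1 probe 123, 123 and 126 in meibomian pools and 302, 322 and 317 in submandibular pools. Neither was called on ranks, and the log2 differences were -1.46 and -1.34.

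**Figure D5:**
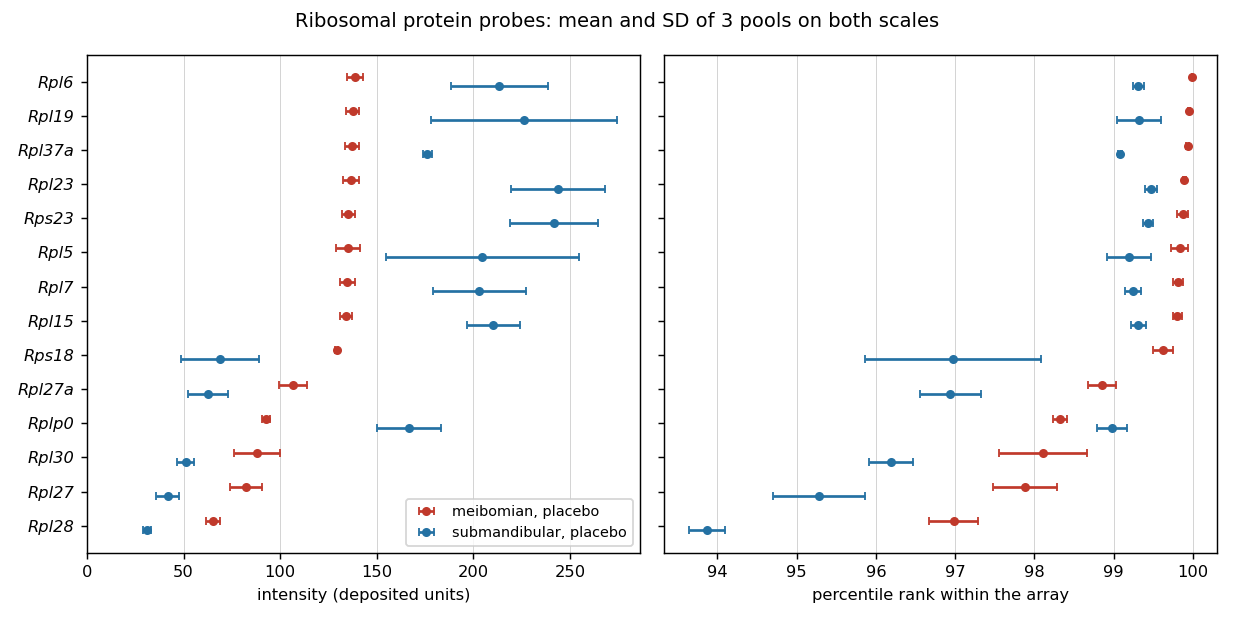
Mean ± SD over 3 pools of named ribosomal protein probes as intensity (left) and as percentile rank within the array (right) for meibomian (red) and submandibular (blue) placebo arrays. The 8 uppermost probes lie left of the submandibular value as intensities, between 133.9 and 138.9, and right of it as ranks.

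Oxidative phosphorylation differed little, with 15 higher (30%) and 10 lower (20%) of 50 probes, against 30.6% and 36% over all probes. None of the called probes differed by 2-fold, and the median log2 difference was 0.13. Cox8a (0.93 ± 0.12), Cox5b (0.78 ± 0.12), Uqcrfs1 (0.57 ± 0.17), Ndufs4 (0.56 ± 0.16) and Atp5c1 (0.50 ± 0.15), subunits of the respiratory chain and ATP synthase, were higher in the meibomian gland. Uqcrfs1 was not called without meibomian pool C (0.43, adjusted p = 0.0536). The carrier Slc25a4 was higher on the log2 scale (0.82 ± 0.14) and not called on ranks. Sdha, of succinate dehydrogenase (-0.81 ± 0.14), and the phosphate carrier Slc25a3 (-0.60 ± 0.12) were lower. Cox6a1, at 112, 126 and 130.4 in meibomian pools and 214, 193 and 212 in submandibular pools, lay at the meibomian ceiling and was not called on ranks.

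The same gland contrast in the testosterone arrays called 5021 of 7463 probes (67.3%), and 4125 went the same way in both treatments, which is 83% of the placebo calls and 82.2% of the testosterone calls. The direction was opposite for 36 probes. The 2 contrasts share no array, but they come from 1 fit with the same filter and the same spread per probe. Their calls are therefore not independent. The difference between them was called for 552 probes (7.4%). Among the leading genes, Egf differed by -9.97 with and -7.18 without testosterone, and Smr2 by -5.04 with and -1.31 without it. Ptgds was lower in the meibomian than in the submandibular gland with testosterone, at -3.32, and higher without it, at 2.69. Its testosterone pools read 3.56, 4.90 and 3.36 in the meibomian gland and 47.9, 32.2 and 42.6 in the submandibular gland. Sprr1a (8.22), Elovl4 (8.79), Klk1b5 (-10.09) and Amy1 (-9.17) kept differences of similar size with testosterone. The difference between treatments was not called for these 4 genes. The Klk1b5 difference had a wide standard error, given above, so a change with treatment could have gone uncalled.

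Pools of 1 group were not equally alike. Spearman correlations over all probes were 0.991 to 0.992 among the meibomian pools, 0.93 to 0.941 among the submandibular pools and 0.814 to 0.826 between the glands. In the meibomian gland pool A read at least 2-fold below both other pools for 4 tested probes, pool B for 3 and pool C for 0, while in the submandibular gland these numbers were 88 for A, 34 for B and 129 for C. At least 2-fold above both other pools, meibomian pool A read 10 probes, B 6 and C 1, and submandibular pool A read 57, B 14 and C 10. Genes given here were picked after their values were seen. Slc12a2, the chloride importer of acinar cells, read 6.2, 6.16 and 4.89 in the meibomian pools and 71.3, 66.5 and 0.316 in the submandibular pools and was not called. Cox7a2, a subunit of cytochrome oxidase, read 84.0, 80.8 and 82.6 in the meibomian pools and 89.8, 88.1 and 1.05 in the submandibular pools. Eif4e, the cap-binding translation factor, read 28.3, 24.6 and 24.9 in the meibomian pools and 0.173, 14.2 and 14.4 in the submandibular pools, where pool A was the low one. In the meibomian gland pool A stood above for interferon genes such as Tgtp1, at 12.2, 1.5 and 1.62, against 5.58, 2.92 and 2.87 in the submandibular pools.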

How the data were processed

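The authors deposited 1 table of linear intensity values for 18 arrays of 1 colour, 10500 probes each, in 6 groups of 3 pools. Array, scanner, background correction and scaling are not given in the sources used here; in the deposited table each array's median intensity is near 1, and the code -1 was read as no value. The table holds no detection calls, so dim levels have no stated background. Gene names came from the platform annotation, in which 8983 probes had 1 symbol, 1 had several and 1516 had none. No symbol needed updating.

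Values below 0 were set to 0. Probes needed at least 2 values per group and a level above the array's 40th percentile on at least 3 arrays; the first rule removed 146 probes and the second 2891. Log2(intensity + 0.174), the offset being the 10th percentile of positive values, was fitted over 18 arrays with limma 3.58.1 in R 4.3.3 (lmFit, eBayes with trend, 12 residual degrees of freedom, Benjamini-Hochberg adjustment). Percentile ranks within arrays were fitted likewise. The fit was tested on simulated data. Python 3.11.15, numpy 2.4.6, pandas 2.3.3 and matplotlib 3.10.9 were used for tables and figures.

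The comparison, the gene lists and the tests were chosen with earlier results of these data known. Named genes are the 15 largest differences each way called alike on both scales, up to 6 members of each list in its main direction and 3 in the other, up to 8 with opposite calls on the 2 scales, 8 bright in both glands and 7 genes listed by name, where measured. Promoters came from RefSeq (GRCm38.p6), without chromosome 18; a gene was counted when any of its listed promoters held the letters on either strand. Alternatives were other thresholds, offsets, filters, scalings, array weights, a replicate block and single pools left out.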

Additional observations from a re-analysis of the deposited data

Results flagged for a closer look

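The meibomian minus submandibular difference of 47 named probes changed between treatments by the test of the difference itself in limma (adjusted p under 0.05), and the values below are the testosterone difference minus the placebo difference on the log2 scale. Over all tested probes 7.4% were called in this way. Among the granular tubule products the values were -2.79 for Egf, -3.73 for Smr2 and -2.25 for Tgfb2. The value was -6.01 for Ptgds, -4.56 for St6galnac2, -3.29 for Sult1e1 and -2.22 for Hsd17b3. The gland difference of Ptgds was -3.32 with and 2.69 without testosterone, and that of St6galnac2 -3.08 with and 1.48 without. For 4 further genes the gland difference with testosterone had the other sign, but it was near 0 and no reversal can be read from it. With testosterone it was -0.17 for Man2a1, -0.23 for St3gal5, -0.005 for Slc25a4 and 0.20 for Snap25. The testosterone minus placebo values were -1.53 for Man2a1, -1.66 for St3gal5, -0.83 for Slc25a4 and 0.70 for Snap25.

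Lipid genes had values of 0.77 for Elovl3, -0.71 for Hacd2, 0.80 for Smpd1, 0.86 for Sphk2 and -1.17 for B4galt6. Among genes of stratified and mucosal epithelia the values were -2.17 for Sprr2a1, -1.11 for Krt19 and -1.24 for Muc13. Glycan and folding enzymes gave 1.10 for B3gnt3, 1.08 for Hs3st1, -0.81 for Galnt3 and -1.06 for Man1a, and -1.36 for Ero1a and -1.01 for Sdf2l1. Duct and secretory genes gave 0.98 for Ascl3, 0.93 for Kcnn4, 0.82 for Elf5 and 2.26 for Ctrb1.

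Genes of muscle, matrix and nerve gave -2.70 for Sgca, 1.44 for Pvalb, 1.19 for Cox7a1, -1.06 for Actg2, -0.94 for Cnn1 and -0.95 for Smtn, and -1.43 for Tnc, -1.09 for Col4a1, -0.91 for S100a4 and -1.31 for Egr2. The transcription factors Sox11 and Twist2 gave 1.70 for Sox11 and 1.05 for Twist2. The probes annotated to Th, Plcl2 and Smap1 gave 0.72 for Th, 1.03 for Plcl2 and 1.34 for Smap1. The remaining values were -1.64 for Fkbp5, 0.68 for Lig1 and 0.71 for Rps23, and Fkbp5 was not called in the placebo arrays.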

How the results depend on the processing

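The count of 4973 probes lay between 4154 and 7160 over the alternatives that kept the rule of an adjusted p, and asking in addition for a 2-fold difference left 2575 probes, and 2531 of 5021 in the testosterone arrays. Leaving out 1 pool gave 4570 to 4800 probes on the log2 scale and 4323 to 4612 on ranks. Pools of the same letter did not deviate together (residual correlations of 0.0494 for A, -0.0435 for B and 0.0475 for C), and with the letter as a replicate block 5004 probes were called, 4786 on ranks and 5066 in the testosterone arrays. Without the filter on dim probes 7160 probes were called, 32.5% of them higher in the meibomian gland, against 45.9% with the filter; in the testosterone arrays these were 7047 probes and 33.9%.

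Quantile normalization over 18 arrays, and over the 6 placebo arrays (chosen after seeing the data), turned the sign of 11 named probes that were lower in the meibomian gland. The log2 differences became 1.41 and 1.31 for Rpl6, 0.94 and 0.81 for Rpl37a, 0.73 and 0.65 for Rpl19, 0.71 and 0.61 for Rpl5, 0.63 and 0.56 for Rpl7, 0.56 and 0.50 for Rpl15, 0.48 and 0.41 for Rps23, 0.47 and 0.41 for Rpl23, 0.20 and 0.27 for Eef1a1, 0.14 and 0.11 for Cox6a1 and 0.15 and 0.16 for Pnliprp2. All but Pnliprp2 are among the probes near the meibomian ceiling. Arf1, with no value on 1 meibomian array, came to -2.21 when the code was counted as 0. Of 285 named probes, 254 kept direction and call under every alternative in which they were tested. The added 2-fold rule was left out of this count. Filtering on the 6 placebo arrays, also chosen after seeing the data, left 4488 calls, 2239 higher and 2249 lower in the meibomian gland. The median log2 difference over the 6688 probes then tested was 0.0132, against -0.0793 with the main filter. Of 825 list counts under alternatives 59 moved. The added 2-fold rule is included here and moved more of them than any other alternative. It took oxidative phosphorylation from 15 higher and 10 lower to 0 and 0. Without the filter on dim probes 11 moved, where lower calls were added. The causes were not tested.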

Other observations

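Some bright probes of the submandibular gland carry names that are not known as salivary products, and their levels in the 3 placebo glands are given here as measured. Mymk averaged 0.592 ± 0.0425 in the meibomian gland, 228 ± 18.9 in the submandibular gland and 8.66 ± 13.1 in the lacrimal gland. Plcl2 averaged 1.06 ± 0.208 in the meibomian gland, 235 ± 45.1 in the submandibular gland and 9.87 ± 0.933 in the lacrimal gland. Egr3 averaged 0.410 ± 0.0345 in the meibomian gland, 65.1 ± 41.4 in the submandibular gland and 5.01 ± 7.65 in the lacrimal gland. Whether these probes read the genes they are annotated to was not tested.

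Some values of single pools match no other pool of the gland. In meibomian pool B the probes of Scgb1b2, Sval2 and Pnliprp1 stood above the other meibomian pools, at 3.82, 98.3 and 3.40 for Scgb1b2, 0.0369, 3.26 and 0.0346 for Sval2 and 0.285, 1.88 and 0.144 for Pnliprp1 in pools A, B and C. The placebo lacrimal pools read 1042, 984 and 977 for Scgb1b2, 613, 651 and 648 for Sval2 and 567, 516 and 489.7 for Pnliprp1. In meibomian pool A the interferon-induced chemokine Cxcl9 read 1.38, against 0.203 and 0.134 in pools B and C. These genes were chosen after their values were seen.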
